A study of Mus musculus with 3 samples.

Results

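The Dlk1-Meg3 imprinted domain of mouse chromosome 12 was followed through its members Dlk1, Meg3, Rian and Mirg, which were taken by gene symbol from the deposited matrices and made up 4 of the 32285 genes listed there. In an imprinted domain the copy inherited from the mother and the copy inherited from the father are used differently. Dlk1, which encodes a transmembrane protein with EGF-like repeats related to the Notch ligands, is expressed from the paternal copy, and the long non-coding RNAs Meg3, Rian and Mirg are expressed from the maternal copy. Rian is the host of small nucleolar RNAs and Mirg is the host of a large microRNA cluster. A methylated control region between Dlk1 and Meg3 sets which genes each copy uses, and silencing of the non-coding RNAs has been described in some mouse pluripotent stem cell lines.

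The samples were mouse blastoids, which are blastocyst-like structures grown from stem cells, profiled by droplet single-cell RNA sequencing from the 3' end of transcripts. The source was the single E14 embryonic stem cell line, kept with leukaemia inhibitory factor and 10 µM T0901317, an agonist of the liver X receptors. Cells were seeded in microwells with 12.5 ng/mL FGF4, 0.5 µg/mL heparin, 3 µM CHIR99021 (an inhibitor of GSK3) and, at first only, 2 µM Y-27632 (an inhibitor of ROCK). From the next day 5 ng/mL BMP4 and 0.5 µM A83-01 (an inhibitor of TGF-beta type I receptors) were present with FGF4, heparin and CHIR99021, and blastoids were picked by hand on day 5 and digested for 30 min. The 3 libraries, called by their types I, II and III below, shared all of these agents, and the labels do not say what sets the types apart.

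Each type was 1 library. States were compared within libraries, so the p-values below measure how alike a difference between states was across 3 libraries of different types. Only deep barcodes were used, with 10000 UMIs or more and no more than 20% of them mitochondrial. These were 1405 of 6813 in Type I, 1992 of 9265 in Type II and 272 of 2310 in Type III, with medians of 52224, 41491 and 71540 UMIs. A barcode was called visceral endoderm (VE) where Ttr, Rbp4, Apoa1 and Apoa2 together reached 1000 counts per 1000000 UMIs (CPM). Of the remainder, it was called early primitive endoderm (early PrE) where Gata6, Sox17 and Gata4 reached 100 CPM, then trophectoderm (TE) where Krt8, Krt18 and Krt19 reached 800 CPM, then epiblast where Pou5f1 reached 150 CPM. This gave 1025 VE, 692 early PrE, 558 TE and 1054 epiblast cells, and 340 barcodes met no rule. Type III held 19 of the VE cells and 45 of the early PrE cells. No member enters these rules. Kept barcodes shared between libraries numbered 1, between Type I and Type II.

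The summed level of each list of markers outside the rules was highest in the state named for it in every library, but single markers did not all follow. The summed level of 6 visceral endoderm genes was 4197 to 5736 CPM in VE, 1440 to 1658 in early PrE, 10.6 to 65.6 in TE and 12 to 49.5 in epiblast. The summed early endoderm markers were 6549 to 6713 CPM in VE and 7106 to 8342 CPM in early PrE. By these lists VE and early PrE differed in the visceral endoderm genes and shared the early endoderm genes. The TE list reached 788 to 1041 CPM in TE and at most 124 in the other 3 states, although the defining TE gene Elf5 was at most 1.01 CPM there. The epiblast list reached 1417 to 1901 CPM in epiblast and at most 224 in the others. Cdx2, a TE gene, was 12.5, 8.26 and 4.82 CPM in TE and higher in VE, at 18.9, 13.8 and 10.9 CPM. Eomes, of the same list, was lower in TE than in each other state in every library. Cubn of the visceral endoderm list was higher in early PrE than in VE, and Dab2 and Foxa2 of the early endoderm list were higher in VE than in early PrE, in every library.

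On GRCm38 all members lie on the plus strand of chromosome 12. Dlk1 spans 109452823 to 109463336, Meg3 spans 109541001 to 109571726, Rian spans 109603940 to 109661716 and Mirg spans 109729764 to 109749460. The gap from the end of Dlk1 to the start of Meg3 is 77664 bases. The annotation places 14 hairpin microRNA genes inside Mirg, 3 inside Rian, 1 inside Meg3 and 0 inside Dlk1. The promoters of Dlk1 and Meg3, the starts from which the coding and non-coding transcripts compared here are read, are shown from 250 bases before to 50 bases after the RefSeq start on GRCm38.p6. Capitals mark every match, on either strand, to TGACGTCA (the cyclic AMP response element), TATAAA (the TATA box) and TGCCGC (a motif known from the binding of the imprint protector ZFP57).
Dlk1 promoter, chr12:109452573-109452872, plus strand: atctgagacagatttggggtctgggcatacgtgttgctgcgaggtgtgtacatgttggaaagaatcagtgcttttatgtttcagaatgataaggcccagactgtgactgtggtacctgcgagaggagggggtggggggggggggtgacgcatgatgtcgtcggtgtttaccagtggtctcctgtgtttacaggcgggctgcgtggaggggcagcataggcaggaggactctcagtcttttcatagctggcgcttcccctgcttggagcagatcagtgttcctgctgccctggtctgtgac
Meg3 promoter, chr12:109540746-109541045, plus strand: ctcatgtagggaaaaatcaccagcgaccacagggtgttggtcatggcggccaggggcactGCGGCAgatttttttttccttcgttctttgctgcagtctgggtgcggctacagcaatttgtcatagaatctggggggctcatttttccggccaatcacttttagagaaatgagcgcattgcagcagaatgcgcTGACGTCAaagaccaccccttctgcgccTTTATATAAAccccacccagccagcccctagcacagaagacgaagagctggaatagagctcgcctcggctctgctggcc
The Dlk1 window holds none of these matches and the Meg3 window holds all of them: 1 match to TGACGTCA, 2 overlapping matches to TATAAA on opposite strands and 1 match to TGCCGC. Among 32851 windows of the same length, 1.79% hold TGACGTCA, 13.6% hold TATAAA and 11.6% hold TGCCGC. The windows hold 9 and 13 CpG dinucleotides, with GC contents of 55.7% and 53.7%. A match describes letters only, and methylation was not measured.

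Among the 4 states Dlk1 was highest in the visceral endoderm in every library. Its level in VE was 74.3 CPM in Type I, 58.5 in Type II and 82.4 in Type III (71.7 ± 12.2, SD, n = 3). In early PrE it was 11.3, 8.21 and 5.79 CPM (8.42 ± 2.75, SD, n = 3). All 3 VE values lay above all early PrE values, with no overlap. In TE, Dlk1 was 4.94, 7.4 and 1.12 CPM (4.49 ± 3.16, SD, n = 3), and in epiblast it was 1.53, 1.24 and 0.539 CPM (1.1 ± 0.508, SD, n = 3). Across libraries TE overlapped early PrE and epiblast, but within each of the 3 libraries it lay below early PrE and above epiblast. In Type III, 71 of the 144 Dlk1 UMIs of VE came from a single cell, which is 49.3%. In TE a single cell gave 19 of 52 UMIs in Type I and 30 of 95 in Type II.

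Fitted over all genes with library as a block, Dlk1 was 49.9-fold higher in VE than in epiblast (log2 change 5.64 ± 0.302, SE; adjusted p = 2.52e-10, edgeR quasi-likelihood test with Benjamini-Hochberg adjustment). It was 15-fold higher in VE than in TE (log2 change 3.91; edgeR adjusted p = 5.26e-09) and 7.72-fold higher in VE than in early PrE (log2 change 2.95; edgeR adjusted p = 8.09e-07). Early PrE exceeded epiblast by 6.46-fold (log2 change 2.69; edgeR adjusted p = 1.37e-05). Smaller rises of Dlk1 were called in TE over epiblast (1.73 on the log2 scale; edgeR adjusted p = 0.00291) and in early PrE over TE (0.96; edgeR adjusted p = 0.0186). The first was not called without Type II (1.18; adjusted p = 0.0808) and the second was not called without Type I (0.74; adjusted p = 0.186).

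The share of cells with a Dlk1 UMI followed the same order. After thinning every cell to 10000 UMIs, 33.9%, 31.3% and 31.6% of VE cells held a Dlk1 UMI in Types I, II and III. In early PrE these shares were 7.75%, 9.04% and 6.67%, in TE 1.92%, 4.32% and 2.78%, and in epiblast 1.71%, 1.2% and 0%. The 0 of 121 epiblast cells in Type III allows a share of up to 2.48%, by counting error alone. Without thinning, 61.6%, 54.7% and 57.9% of VE cells and 4.84%, 5.33% and 1.65% of epiblast cells had a Dlk1 UMI. Per 1000 UMIs of the 6 visceral endoderm marker genes, Dlk1 had 12 to 17.7 UMIs in VE, 3.49 to 7.83 in early PrE, 106 to 116 in TE and 25 to 48 in epiblast. The part of free RNA in these UMIs was not tested, and levels near 1 CPM in epiblast were not read as expression.

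The non-coding RNAs followed a different order. Meg3 was at 1009, 972 and 958 CPM in VE (980 ± 26.5, SD, n = 3) and at 910, 683 and 848 CPM in early PrE (814 ± 118, SD, n = 3). It was lower in epiblast, at 398, 322 and 253 CPM (324 ± 72.7, SD, n = 3), and in TE, at 273, 308 and 228 CPM (270 ± 40.5, SD, n = 3). Both endoderm states lay above the other 2 states in every library, and TE overlapped epiblast. Rian gave the same division, with 403, 351 and 396 CPM in VE and 329, 215 and 325 CPM in early PrE. Rian stood at 89.7, 92.7 and 69.9 CPM in TE and at 110, 83.2 and 71.4 CPM in epiblast, again with overlap between these 2 states. Mirg was at 63.5, 57.3 and 61.2 CPM in VE, 55, 41.9 and 55.7 in early PrE, 15.2, 13.4 and 10.3 in TE and 16.6, 14.6 and 11.2 in epiblast. For each of the 3 RNAs VE lay above early PrE in every library and the values of these 2 states did not overlap. The Type III values rest on few cells. There a single cell gave 400 of the 1674 Meg3 UMIs of VE, and another gave 701 of the 3807 of early PrE.

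**Figure D1:**
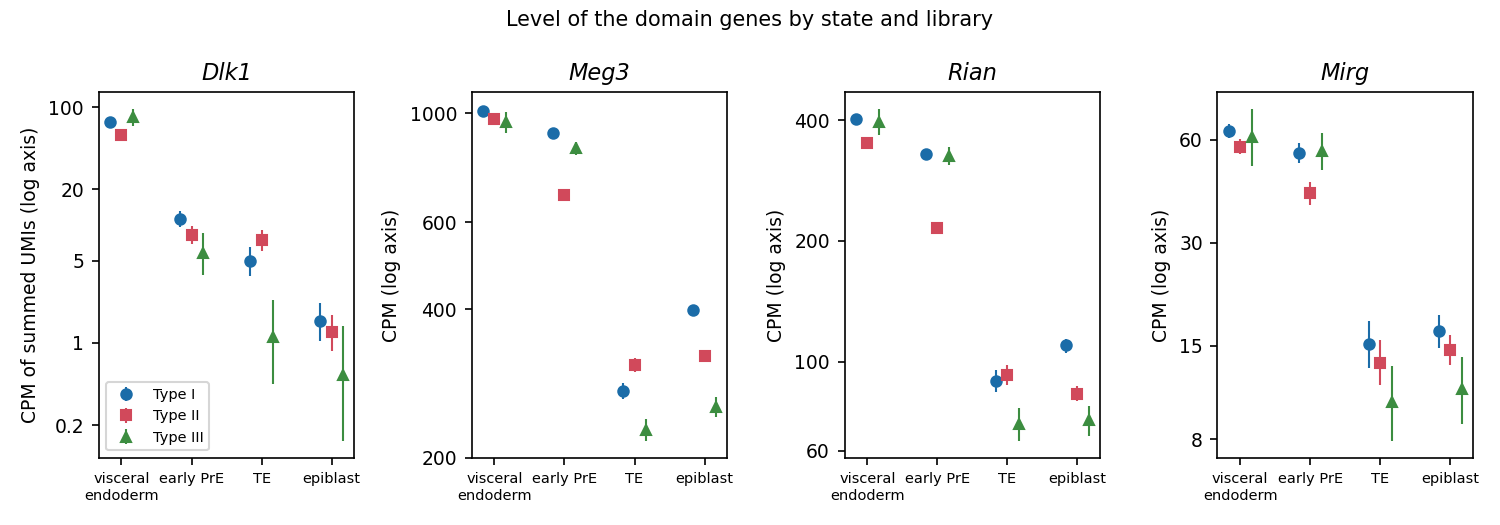
Level of each member, in CPM of UMIs summed over the cells of a state (log axis), in visceral endoderm, early PrE, TE and epiblast, with exact 95% Poisson intervals for counting error; each point is 1 library. Dlk1 falls from 58.5 to 82.4 CPM in VE to at most 11.3 CPM in early PrE, whereas Meg3, Rian and Mirg stay high in both endoderm states.

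In VE over epiblast all 4 members rose, in a comparison in which 75.7% of the 13616 genes tested were called, 38% as higher and 37.7% as lower. The log2 changes were 1.45 ± 0.121 (SE) for Meg3, 1.95 ± 0.142 for Rian and 1.89 ± 0.12 for Mirg, all smaller than that of Dlk1 (largest edgeR adjusted p = 3.84e-08). All 4 members also rose in early PrE over epiblast, where 70.6% of genes were called, 36.1% as higher and 34.5% as lower. There the log2 changes were 1.18 for Meg3, 1.55 for Rian and 1.62 for Mirg (largest edgeR adjusted p = 4.6e-07). In VE over early PrE, where 22.7% of genes were called, Rian passed with a log2 change of 0.41 (edgeR adjusted p = 0.043). Meg3, at 0.26 (edgeR adjusted p = 0.128), and Mirg, at 0.26 (edgeR adjusted p = 0.11), did not. The call of Rian was lost without Type I (0.46; adjusted p = 0.105) and without Type II (0.28; adjusted p = 0.293), and without Type III both Meg3 (0.33; adjusted p = 0.0289) and Mirg (0.33; adjusted p = 0.00608) were called.

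Against TE, all 3 non-coding RNAs were higher in both endoderm states. In VE over TE, where 65.6% of genes were called, 33% as higher, the log2 changes were 2.02 for Meg3, 2.33 for Rian and 2.34 for Mirg. In early PrE over TE, where 59.4% were called, 30.3% as higher, they were 1.76, 1.92 and 2.08 in the same order (largest edgeR adjusted p over both comparisons = 2.53e-08). In TE over epiblast, where 58.2% of genes were called, Dlk1 and the non-coding RNAs had opposite signs. Meg3 fell by 0.58 (edgeR adjusted p = 0.000783), Rian by 0.37 (edgeR adjusted p = 0.0354) and Mirg by 0.45 (edgeR adjusted p = 0.0117) on the log2 scale. These 3 calls rested on the scaling: with plain totals the changes were -0.25, -0.05 and -0.14 and none was called. The scaling moved the median of all genes in this comparison by -0.32. Without Type I neither Rian (-0.28; adjusted p = 0.223) nor Mirg (-0.49; adjusted p = 0.0527) was called, and without Type II Mirg was not called (-0.46; adjusted p = 0.0699).

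**Figure D2:**
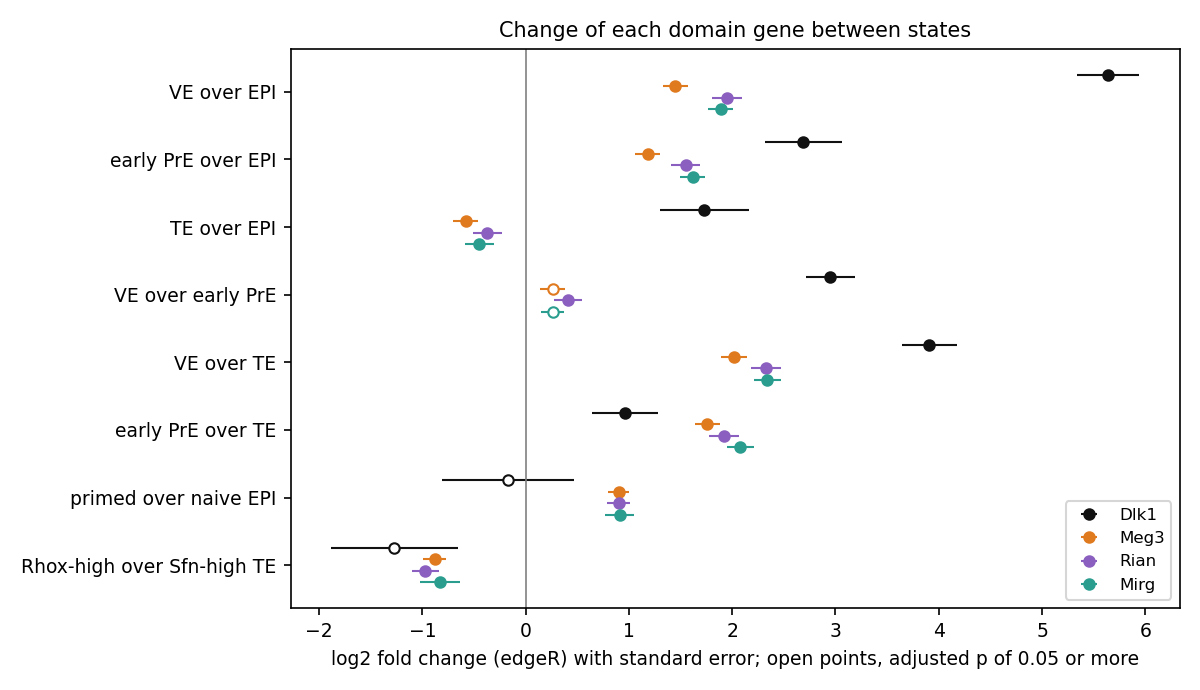
Fitted log2 change of each member (points) with its standard error (bars) for 8 comparisons of states or of divisions within a state; filled points passed an edgeR adjusted p of 0.05 and open points did not. Dlk1 stands apart from the 3 non-coding RNAs, which move together, in VE over epiblast and in VE over early PrE, and has the opposite sign in TE over epiblast.

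Dlk1 and the summed non-coding RNAs were then set against each other inside each library, as log2(CPM + 10). The change from early PrE to VE was 1.99, 1.91 and 2.55 for Dlk1 and 0.19, 0.55 and 0.20 for the sum of the 3 RNAs in Types I, II and III. Dlk1 thus rose more in all 3 libraries, by 1.84 ± 0.49 (SD, n = 3). From epiblast to VE the difference was 1.13 ± 0.24 (SD, n = 3), and from TE to early PrE it was -1.27 ± 0.18 (SD, n = 3). From epiblast to early PrE, Dlk1 changed by 0.88, 0.70 and 0.58 and the RNAs by 1.29, 1.15 and 1.84, a difference of -0.70 ± 0.48 (SD, n = 3). The 10 CPM pseudocount shrinks the changes of Dlk1 where it is low. With 1 CPM the differences were 2.66 from early PrE to VE, 3.37 from epiblast to VE, -0.70 from TE to early PrE and 0.71 from epiblast to early PrE, the last with the opposite sign. The fitted changes from epiblast to early PrE also had Dlk1 above the 3 RNAs, so no order is read from that comparison. The exact two-sided sign-flip test over 3 libraries gave p = 0.25 for each of the 6 comparisons of states, the smallest it can give, so these differences rest on their size and on a common sign in 3 of 3 libraries.

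The non-coding RNAs kept nearly constant proportions with a small change between states. Rian made up 27.3%, 25.5% and 28% of the UMIs of the 3 RNAs in VE and 20.9%, 19.8% and 21.3% in epiblast. These ranges did not overlap. Meg3 made up 68.4%, 70.4% and 67.7% in VE and 75.9%, 76.7% and 75.4% in epiblast, again with no overlap. Early PrE (Rian at 25.4%, 22.9% and 26.5%) and TE (23.8%, 22.4% and 22.7%) lay between these states, early PrE overlapping both VE and TE.

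The non-coding RNAs also changed within states, where Dlk1 had too few UMIs for its own change to be read. Epiblast cells were divided by the larger CPM sum: Zfp42, Klf2, Nanog and Tfcp2l1, or the later genes Otx2, Pou3f1, Fgf5, Nodal, T and Fgf8. Of 1054 cells this gave 815 naive and 233 primed cells, and cells with both sums 0 were left out. Meg3 was at 538 ± 54.3 CPM (SD, n = 3) in primed and 267 ± 72.9 CPM (SD, n = 3) in naive cells, and the ranges of 481 to 589 and 211 to 349 CPM did not overlap. The primed value of 481 CPM, in Type III, rests on 15 cells, and a single cell gave 225 of the 556 Meg3 UMIs (40.5%). The log2 changes were 0.90 for Meg3, 0.90 for Rian and 0.91 for Mirg (edgeR adjusted p = 9.09e-06, 1.61e-05 and 0.000172), where 19.7% of 11703 genes were called, 9.86% as higher. Dlk1 was at 0.86 ± 1.09 (SD, n = 3) and 1.12 ± 0.601 CPM (SD, n = 3) and was not called (log2 change -0.17 ± 0.64, SE; edgeR adjusted p = 0.897), with 2, 15 and 0 UMIs in primed cells. The call of Mirg was lost without Type II (0.77; adjusted p = 0.0501). The sign of Dlk1 turned without Type I (0.68; adjusted p = 0.63).

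TE cells were divided by whether the homeobox genes Rhox6 and Rhox9 or the epithelial genes Anxa1 and Sfn had the larger sum. Of 558 cells this gave 174 Rhox-high and 306 Sfn-high cells, and cells with both sums 0 were left out. Rhox-high and Sfn-high cells held 8 and 13 of the 52 Dlk1 UMIs of TE in Type I. In Type II they held 4 and 55 of 95. Meg3 over all TE cells of Type II, at 308 CPM, was above its level in both groups (185 and 307 CPM). The cells left out were not compared. Meg3 was at 164 ± 18.9 CPM (SD, n = 3) in Rhox-high cells and at 278 ± 34.1 CPM (SD, n = 3) in Sfn-high cells, and the ranges of 149 to 185 and 240 to 307 CPM did not overlap. The Rhox-high values rest on few cells. In Type III, with 19 such cells, a single cell gave 65.6% of the Meg3 UMIs, and single cells gave 70.6% of the Rian UMIs and all 5 Mirg UMIs. For Meg3 this share was 29.6% in Type I and 25.5% in Type II, against 8.27% to 15.9% in Sfn-high cells. The median Rhox-high cell had 12.4, 0 and 0 CPM of Meg3 in Types I, II and III, below the Sfn-high median in each. The sums therefore do not give the level of a typical cell. All 3 RNAs fell in Rhox-high cells, by 0.88, 0.97 and 0.83 on the log2 scale for Meg3, Rian and Mirg (largest edgeR adjusted p = 0.004), where 31.9% of genes were called, 16.3% as lower. The change of Dlk1 had the same sign and a larger size but was not called (log2 change -1.27 ± 0.613, SE; edgeR adjusted p = 0.125). It was called without the filter on low counts (-1.29; adjusted p = 0.0375), and its sign turned without Type II (0.06; adjusted p = 0.968).

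Single cells of the endoderm fell into distinct ranges of the non-coding RNAs. In VE, 20.5%, 24% and 21.1% of cells had no UMI of Meg3, Rian or Mirg in Types I, II and III, at median depths of 40808 to 92031 UMIs per cell. With a division at 100 CPM of the 3 RNAs together, chosen after the distribution was seen, 42.4%, 45.6% and 47.4% of VE cells were low and the median of the high cells was 2174, 2299 and 2193 CPM. Few cells lay near the division: 3.84%, 5.33% and 5.26% of VE cells were between 50 and 200 CPM. In early PrE 35.1%, 43.1% and 48.9% of cells were low, and 5.54%, 9.31% and 11.1% lay between 50 and 200 CPM. Low cells were also found in TE (58.2%, 50.4% and 61.1%) and epiblast (39.9%, 51.5% and 46.3%), but there 14.8% to 23.6% of cells lay between 50 and 200 CPM, so the division is less clear in these states.

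**Figure D3:**
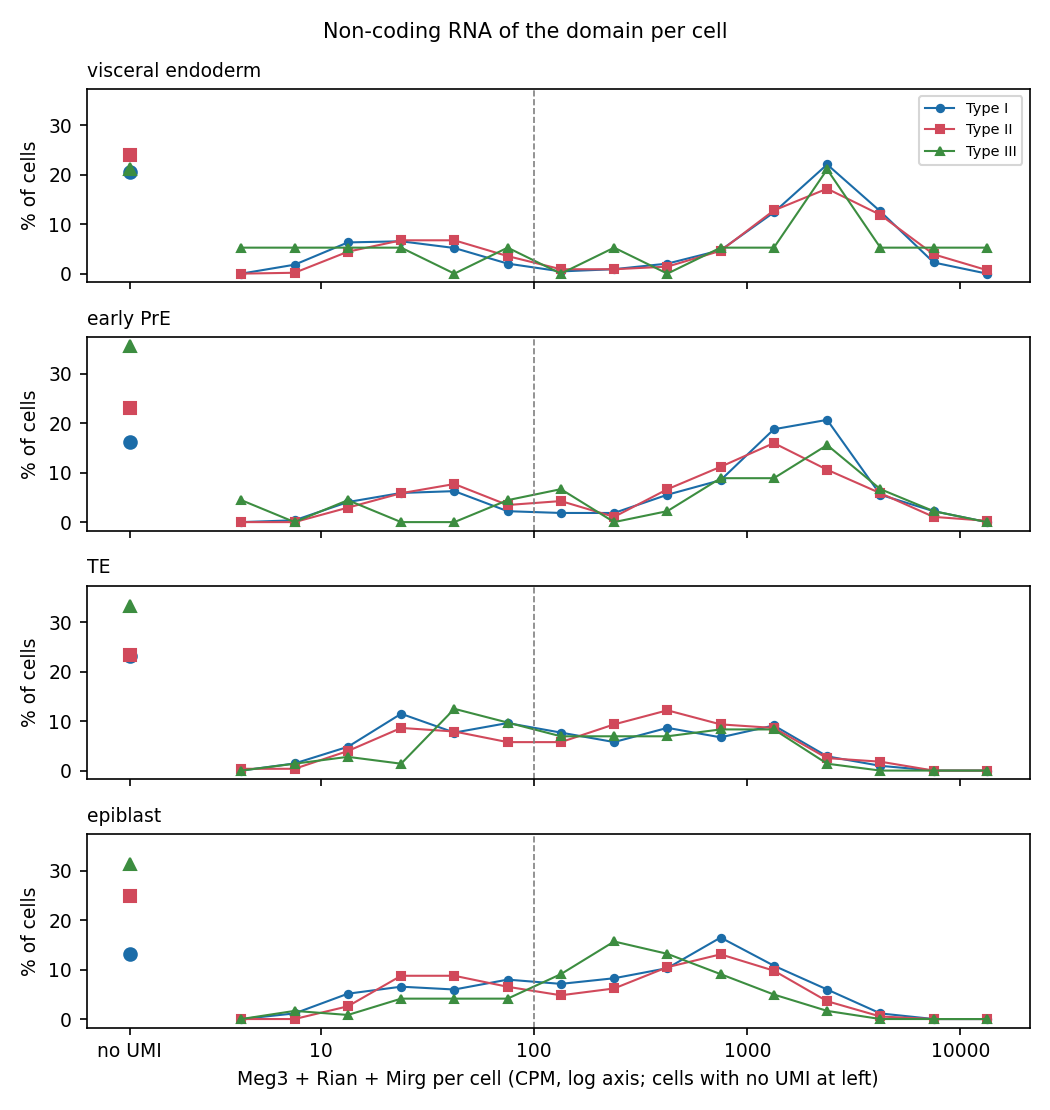
Share of cells (%) by the CPM of Meg3, Rian and Mirg together (log axis, in bins of equal width), with cells without a UMI at the left, for 4 states and 3 libraries; the dashed line marks 100 CPM. VE and early PrE show a high peak above 1000 CPM and a sparse range around 100 CPM, whereas TE and epiblast are spread more evenly.

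The 3 RNAs tended to be found in the same cells. In VE, 88.3%, 85.7% and 81.8% of the cells with a Meg3 UMI also had a Rian UMI at 10000 UMIs per cell, against 5.92%, 7.49% and 0% of the cells without a Meg3 UMI. Mirg, at a lower level, was found in 53.3%, 54.8% and 54.5% of the VE cells with a Meg3 UMI. Of those without, 1.78%, 0.881% and 0% had a Mirg UMI. Only 15.6% to 21.4% of TE and epiblast cells with a Meg3 UMI had a Mirg UMI. Dlk1 and Meg3 tended not to be found in the same VE cells. A Meg3 UMI was found in 40%, 40.9% and 16.7% of the VE cells with a Dlk1 UMI and in 73%, 68.2% and 76.9% of those without. Across VE cells Spearman's rho between Dlk1 and the summed RNAs was -0.54 in 443 cells, -0.45 in 563 cells and -0.70 in 19 cells, against -0.10 to -0.15 in early PrE and -0.01 to 0.12 in TE and epiblast. Cells of a library share its preparation, so these values are descriptions.

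In the visceral endoderm, Dlk1 was higher in the cells low in the non-coding RNAs than in the high cells. In Type I it was 140 CPM in the 188 low cells and 30.5 CPM in the 255 high cells. In Type II it was 96.1 CPM in 257 low and 28 CPM in 306 high cells, and in Type III it was 138 CPM in 9 low and 10.5 CPM in 10 high cells. The low cells lay above the high cells in all 3 libraries, at 125 ± 25 against 23 ± 10.9 CPM (SD, n = 3), with no overlap. The fitted change was 2.21 ± 0.28 (SE) on the log2 scale, or 4.63-fold (edgeR adjusted p = 8.66e-05, over 12730 genes). In this comparison 0.0707% of genes were called, 9 in all, and 0.0314% were called as higher. Of the 9, the calls of Meg3, Rian and Mirg follow from the division itself. Without Type I 5 genes were called and without Type III 25. Dlk1 ranked 5 by p after 4 non-coding genes of the domain. The comparison was chosen after the per-cell values were seen. Type III rests on few cells, and 71 of the 136 Dlk1 UMIs of its low cells came from a single cell. Without Type III the change was 2.00 (edgeR adjusted p = 1.47e-05), without Type II 2.66 (0.000287) and without Type I 2.33 (0.0467). An alternative fit with DESeq2 gave 2.69 (DESeq2 adjusted p = 0.0331).

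Detection gave the same picture and depth did not differ in a common direction. The share of VE cells with a Dlk1 UMI was 88.8% in low against 41.6% in high cells of Type I, 74.3% against 38.2% in Type II and 88.9% against 30% in Type III. At 10000 UMIs per cell these shares were 53.7% against 19.2%, 46.7% against 18.3% and 66.7% against 0%, the last being 0 of 10 cells, which allows up to 30%. Median depth was 50772 and 56982 UMIs in low and high cells of Type I, 40499 and 40924 in Type II and 96572 and 63067 in Type III. Within the low cells of Type I, Dlk1 was 127 CPM where no UMI of the 3 RNAs was found and 150 CPM where at least 1 was found below 100 CPM. In Type II these values were 89.3 and 103 CPM. Among high cells, Dlk1 was 36.4 CPM at 100 to 1000 CPM of the RNAs and 29.8 CPM above in Type I, and 49.2 and 24.1 CPM in Type II. In Type III, with 2 to 8 cells in each of the 4 ranges, Dlk1 was 241, 63.4, 0 and 11.6 CPM from the lowest range to the highest.

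**Figure D4:**
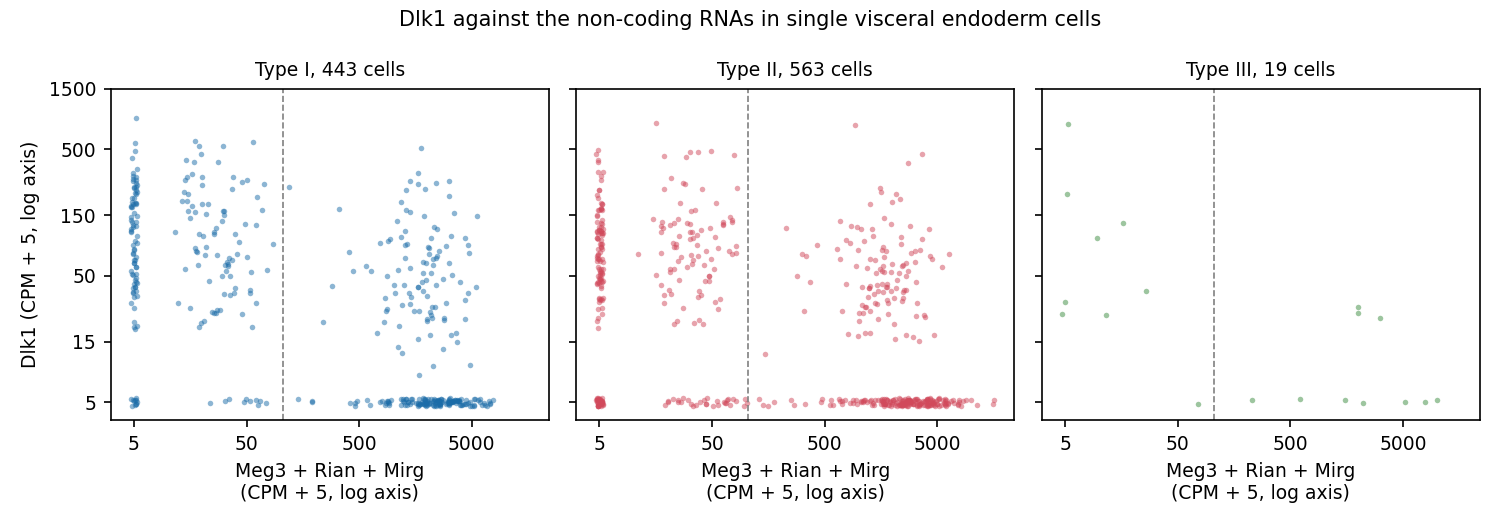
Dlk1 against Meg3, Rian and Mirg together in each visceral endoderm cell (CPM + 5, both axes log, with slight jitter), for 3 libraries; the dashed line marks 100 CPM of the 3 RNAs. Most high cells lie on the line of no Dlk1 UMI, whereas 74.3% to 88.9% of low cells hold a Dlk1 UMI.

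The summed visceral endoderm markers differed between low and high VE cells with no common direction: 4878 and 3744 CPM in Type I, 5399 and 4465 in Type II and 4713 and 7050 in Type III. The early endoderm markers were 6640 and 6639, 6885 and 6276, and 6867 and 6515 CPM. Trophectoderm markers were at 48.6 to 71.2 CPM in all 6 groups and epiblast markers at 51.3 to 124 CPM. Both of these sums were lower in the low cells in each library. Streak mesoderm, blood or endothelial, mesenchymal and 2C markers were each at or below 5.56 CPM, with T, Fgf8, Mixl1 and Mesp1 at 0 in Type III. The part of these markers in the difference of Dlk1 was not tested.

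The other genes called between low and high VE cells were few. B830012L14Rik, a long non-coding RNA gene between Rian and Mirg at 109695586 to 109702587, had 1 UMI in low and 1572 in high cells of Type I, 0 and 1426 in Type II, and 0 and 107 in Type III. It was at or near 0 in the cells low in the other non-coding RNAs of the domain. Igf2os, an antisense transcript of the imprinted growth factor gene Igf2, was 18.7, 19 and 16.3 CPM in low and 5.08, 3.55 and 5.23 CPM in high cells (log2 change 2.09; edgeR adjusted p = 0.00047). Igf2 itself was 96.4, 80.7 and 42.7 CPM in low and 20.7, 15.6 and 27.5 CPM in high cells and was not called (edgeR adjusted p = 0.224). Reads of Igf2 and of its antisense partner may not be separable, as the sources used here do not give strand use in counting. The remaining calls were 2900097C17Rik (log2 change 0.60), Cisd1, which encodes a mitochondrial iron-sulphur protein (0.44), and Ifitm3, which encodes an antiviral membrane protein (-1.81). The edgeR adjusted p-values were 0.00614, 0.016 and 0.0334. Ifitm3 had 2 UMIs in each group of Type III, so its direction rests on Types I and II.

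Outside VE the same division gave no call for Dlk1. In early PrE, Dlk1 was 20.5, 9.85 and 12.3 CPM in low cells and 6.97, 7.07 and 2.09 CPM in high cells. Low cells were higher in all 3 libraries, without overlap. The log2 change of 1.20 ± 0.418 (SE) did not pass (edgeR adjusted p = 0.528), where 0.173% of genes were called. The 22 genes called in early PrE (10 without Type II and 44 without Type III) included the trophoblast regulators Gcm1 (log2 change 4.57), Gata2 (2.68) and Tfap2c (1.93), all higher in low cells. Summed TE markers were 118, 234 and 141 CPM in low and 67.8, 47.4 and 75.7 CPM in high early PrE cells, and their part in the Dlk1 values was not tested. In TE, Dlk1 was 3.23, 12 and 0.828 CPM in low and 7.11, 3.03 and 1.54 CPM in high cells, with no common direction (log2 change 0.49; edgeR adjusted p = 0.624), where 12.9% of genes were called. That was 1640 genes, against 329 without Type I and 253 without Type II. Summed TE markers were 1367, 1848 and 1116 CPM in low and 276, 281 and 331 CPM in high TE cells. Their part in these calls and in the Dlk1 values was not tested. Without Type II the sign of Dlk1 turned, to -1.19 (adjusted p = 0.309). In epiblast it was 1.65, 0.676 and 0 CPM in low and 1.45, 1.8 and 0.881 CPM in high cells (log2 change -0.70; edgeR adjusted p = 1), where 0.0314% of genes were called. These were the 3 RNAs of the division and B830012L14Rik. The low epiblast cells of Type III had 0 Dlk1 UMIs, which allows up to 1.04 CPM.

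Whether the difference in VE exceeded that in other states was tested directly. The change of Dlk1 from high to low cells was larger in VE than in epiblast by 2.91 ± 0.847 (SE) on the log2 scale, but this did not pass over all genes (edgeR adjusted p = 0.781), where 0.0236% of genes were called. Against TE the difference was 1.72 (edgeR adjusted p = 0.18), where 1.98% of genes were called, and against early PrE 1.01 (edgeR adjusted p = 1), where 0.0471% were called. Against TE it was called without Type II (3.85; adjusted p = 0.0297). Low and high TE cells also differed in their summed TE markers, as given above. The difference of Dlk1 between low and high cells was called within VE and was not shown to be particular to it.

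**Figure D5:**
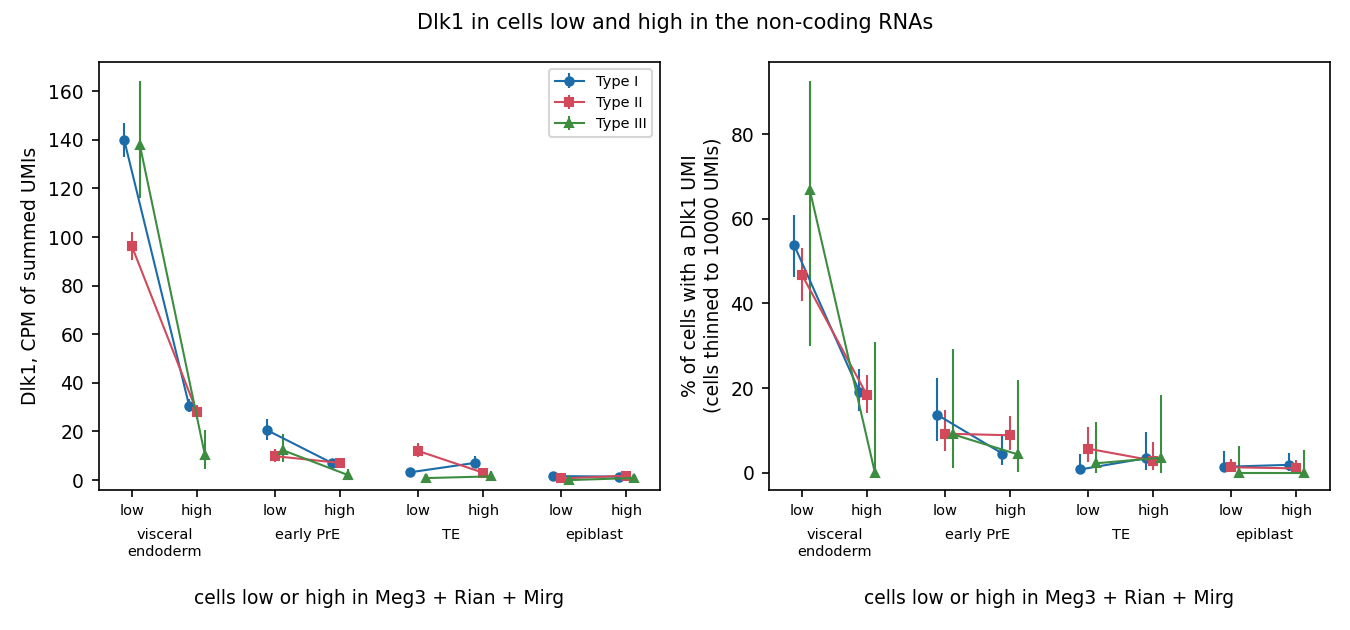
Dlk1 in cells low (below 100 CPM) and high in Meg3, Rian and Mirg together, by state, as CPM of summed UMIs (left) and as the share of cells with a Dlk1 UMI after thinning to 10000 UMIs (right); lines join the groups of 1 library and bars are exact 95% intervals for counting error. In VE all 3 libraries fall from 96.1 to 140 CPM in low cells to 10.5 to 30.5 CPM in high cells.

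Listed genes of the chromosomal neighbourhood moved in both directions. Of 12, 8 passed the filter on low counts, and in VE over epiblast 4 rose and 4 fell (median log2 change -0.08, against 0.00 for all genes), where 38% of all genes were called as higher and 37.7% as lower. Dio3, a thyroid hormone-inactivating enzyme gene at the far end of the domain, rose by 0.99 in VE over epiblast (edgeR adjusted p = 0.0423), whereas the chaperone gene Hsp90aa1 fell by 1.06 (edgeR adjusted p = 2.43e-10). Levels of Dio3 were low, at 2.25, 1.88 and 1.14 CPM in VE, with 2 UMIs in Type III. In epiblast they were 0.814, 0.975 and 0.539 CPM. The change of Dio3 in early PrE over epiblast was -1.37 (edgeR adjusted p = 0.0429). Slc25a29, a mitochondrial carrier gene, fell by 2.96 (edgeR adjusted p = 0.00109) and Wdr25 fell by 1.00 (edgeR adjusted p = 0.00928). Changes in the motor protein gene Dync1h1 (0.94; edgeR adjusted p = 3.96e-08) and the phosphatase subunit gene Ppp2r5c (-0.40; edgeR adjusted p = 0.000212) were smaller. Rtl1, a retrotransposon-derived gene read from the minus strand between Meg3 and Rian, had at most 11 UMIs in any state and library. B830012L14Rik, which is not among the listed neighbours, rose in VE over epiblast as the members did, at 57.2, 55.9 and 61.2 CPM in VE and 11.7, 9.87 and 7.27 CPM in epiblast (log2 change 2.36; edgeR adjusted p = 9.21e-10).

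Genes listed for imprint control were mostly lower in the endoderm states and in TE than in the epiblast. Not all of them set or protect imprints: Tet1 (-1.86) and Tet2 (-1.83), of the same family as Tet3, were among those that fell in VE over epiblast. Of 19 listed, all were tested, 1 rose and 16 fell in VE over epiblast (median log2 change -1.09, against 0.00 for all genes), where 38% of all genes were called as higher and 37.7% as lower. The same counts, 1 and 16, were found in early PrE over epiblast (median -0.81, against 0.02), where 36.1% and 34.5% of all genes were called. In TE over epiblast 2 rose and 14 fell (median -0.97, against -0.02), where 58.2% of genes were called in either direction. Dppa3, which protects maternal methylation in the early embryo, fell by 4.88 (edgeR adjusted p = 1.17e-08) and Dnmt3l, a cofactor of new methylation, fell by 3.30 (edgeR adjusted p = 1.89e-11). Zfp57, which binds methylated imprint control regions, fell by 2.12 (edgeR adjusted p = 1.65e-10). Aff3 fell by 2.50 (edgeR adjusted p = 1.56e-06) and Jarid2, a Polycomb cofactor, fell by 2.48 (edgeR adjusted p = 2.13e-12), whereas Tet3, an oxidase of methylated cytosine, rose by 2.60 (edgeR adjusted p = 8.12e-11). Between low and high VE cells 0 of these 19 genes were called by edgeR, where 0.0707% of all genes were called, with 3 at an unadjusted p under 0.05.

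Genes of the Notch pathway, to whose ligands Dlk1 is related, moved in both directions. Of 24 listed, 19 were tested, and in VE over epiblast 5 rose and 8 fell (median log2 change 0.01, against 0.00 for all genes). Over all genes 75.7% were called, 38% as higher and 37.7% as lower. Mfng, a modifier of Notch receptors, fell by 5.21 (edgeR adjusted p = 1.52e-06), the receptor gene Notch1 fell by 3.40 (edgeR adjusted p = 8.89e-10), and the ligand gene Jag1 fell by 3.10 (edgeR adjusted p = 9.22e-07). Dll3, a divergent ligand, fell by 2.53 (edgeR adjusted p = 4.1e-05) and Nrarp, a feedback target, fell by 2.46 (edgeR adjusted p = 4.36e-07). Adam10, the protease that cleaves Notch receptors, rose by 2.46 (edgeR adjusted p = 2.69e-11). Between low and high VE cells 0 of the 19 were called by edgeR, where 0.0707% of all genes were called, with 2 at an unadjusted p under 0.05.

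Over the 12 sums of library and state, the genes whose log2(CPM + 1) was most like that of Dlk1 were Abcg2, a transporter gene (Pearson r = 0.978), Bex2 (0.975), Ank2, which encodes an ankyrin (0.971), Apoc2, an apolipoprotein gene (0.968), and Ttr (0.966), which is part of the VE rule. Dlk1 had r = 0.824 with Meg3, 0.855 with Rian and 0.828 with Mirg. Meg3 was most like Rian (0.992) and Mirg (0.992), followed by Uqcrq, a respiratory chain gene (0.987), Dda1 (0.985) and Rnasek (0.984). The sums of a library share its preparation, and these values describe the 12 sums.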

How the data were processed

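The deposited values are UMI counts per gene and barcode for 3 libraries, written by Cell Ranger 6.0.1 per the file headers. The build is mm10, credited to the submitters' processing notes. The sources used here do not give how barcodes were taken as cells. No doublet caller was run. Barcodes were kept and named by the rules given above, counts were summed per library and state, and CPM (counts per 1000000 UMIs) was taken from the sums. Sums were compared with edgeR 4.0.16 in R 4.3.3 (quasi-likelihood test, TMM scaling, library as a block, the default filter on low counts), with Benjamini-Hochberg adjustment over all genes tested at 0.05. Libraries pair the sums because each library holds every state. Standard errors are the log2 change over the root of F. Shares were taken after thinning to 10000 UMIs and have exact 95% binomial intervals, CPM has exact Poisson intervals, and a count of 0 allows up to 3 counts. Intervals cover counting error only. The fit was tested on simulated data. Coordinates come from a GENCODE annotation of GRCm38, and promoters from RefSeq.

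Genes named are the members, up to 6 genes of each list with the largest change in VE over epiblast, and the 5 genes most like Dlk1 and Meg3, leaving out mitochondrial, ribosomal, Xist, Y-linked and unnamed transcript genes. Genes called between cells low and high in the non-coding RNAs, and the list of other imprinted genes, were chosen after their values were seen, as was that division itself. The members and the other lists were chosen with earlier results of these data known. Alternatives were DESeq2 1.42.0, other scaling, no filter on low counts, no library block, other thresholds for barcodes and states, another pseudocount, and leaving out each library.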

Additional observations from a re-analysis of the deposited data

Results flagged for a closer look

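Barcodes outside the states compared also held the members. Kept barcodes that met no state rule had Dlk1 at 32.3, 27.3 and 39 CPM in Types I, II and III, above the epiblast, TE and early PrE values and below those of VE, and the 3 non-coding RNAs together at 929, 643 and 706 CPM. In Type III, 20 of the 40 Dlk1 UMIs of these barcodes came from a single barcode. Their streak mesoderm markers were at 103 to 278 CPM and their epiblast markers at 211 to 404 CPM. Early endoderm markers were at 242 to 298 CPM, TE markers at 58.5 to 150 CPM and visceral endoderm markers at 46.8 to 60.6 CPM. Blood or endothelial markers were at 25.3 to 30.6 CPM, 2C markers at 1.42 to 44.8 CPM and mesenchymal markers at 4.87 to 5.38 CPM. Mixl1 and Mesp1 of the streak list were at 0 in Type III. Barcodes under 10000 UMIs had Dlk1 at 20.1, 13.3 and 6.08 CPM and the non-coding RNAs at 632, 411 and 447 CPM. These values were singled out because they come from barcodes that no comparison uses and lie above the limit that a count of 0 allows.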

How the results depend on the processing

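Of 813 alternatives, 747 kept the direction and the side of the threshold, or a count within 1.5 times, and Dlk1 in VE over epiblast, TE and early PrE and in low over high VE cells held under all that were run (low over high 1.63 to 2.69). The cause of the other changes was not tested. Values below are log2 changes unless called counts. With plain totals TE over epiblast gave -0.25 (Meg3), -0.05 (Rian) and -0.14 (Mirg). With lower state thresholds, these were -0.27, -0.11 and -0.13, Meg3 and Mirg were called in VE over early PrE (0.79 and 0.67), Dlk1 in early PrE over TE was not (0.15), and 4746 genes were called in VE over early PrE. With higher thresholds Dlk1 in TE over epiblast (1.12) and Rian in VE over early PrE (0.19) were not called. Without the library block, TE over epiblast (-0.39) and VE over early PrE (0.41) were not called for Rian, Dlk1 was 0.00 in primed over naive cells, and 923 genes were called between low and high TE cells. DESeq2 did not call Rian in VE over early PrE (0.40) or Dlk1 in early PrE over TE (1.10). Rian was not called in TE over epiblast without the deepest barcodes (-0.36) or in VE over early PrE at 10% mitochondrial UMIs (0.28). Barcodes meeting 1 rule only gave no call for Dlk1 in early PrE over TE (0.70) or Mirg in Rhox-high over Sfn-high cells (-0.75), and counts of 4 in early PrE and 971 in TE between low and high cells. For VE this alternative left too few cells and was not run. Without the filter on low counts, calls appeared for Meg3 (0.27) and Mirg (0.27) in VE over early PrE, for Dlk1 in Rhox-high over Sfn-high cells (-1.29) and in low over high early PrE cells (1.15), and for the differences of VE from epiblast (2.89), early PrE (1.04) and TE (1.67). Counts between low and high cells were then 111 in VE, 187 in early PrE and 26 in epiblast. Dividing early PrE cells at 200 CPM gave 75 calls, and cells with no UMI against the others gave 8 in early PrE, 135 in TE and a Dlk1 change of 0.51 in epiblast. In VE that division left under 5 cells in Type III and was not fitted. Thinned TE cells gave 406 calls. A pseudocount of 1 CPM turned Dlk1 minus the RNAs in early PrE over epiblast to 0.71. It made this difference larger in VE over epiblast and in VE over early PrE, and smaller in size in early PrE over TE.

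Leaving out each library in turn gave 1.18 to 1.91 (Dlk1), -0.51 to -0.28 (Rian) and -0.49 to -0.44 (Mirg) in TE over epiblast. In VE over early PrE it gave 0.16 to 0.33 (Meg3), 0.28 to 0.50 (Rian) and 0.16 to 0.33 (Mirg), and for Dlk1 in early PrE over TE 0.74 to 1.59. Primed over naive cells gave -2.05 to 0.68 (Dlk1) and 0.77 to 1.00 (Mirg), and Rhox-high over Sfn-high cells -2.00 to 0.06 (Dlk1). Dlk1 in low over high TE cells ranged from -1.19 to 1.47 and its difference between VE and TE from 0.85 to 3.85. Counts ranged from 728 to 3192 in VE over early PrE, 936 to 2395 in primed over naive and 1572 to 3401 in Rhox-high over Sfn-high cells, lowest without Type II in all 3. Between low and high cells they ranged from 5 to 25 in VE, 10 to 44 in early PrE and 253 to 1896 in TE. Of 96 levels and shares, taken as means of cell CPM or without thinning, 64 moved by more than the spread between libraries. Dlk1 in epiblast rests on 4 to 33 UMIs per library, and VE in Type III on 19 cells.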

Other observations

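Other imprinted genes, listed after the data were seen, also differed between states. Of 28 tested, 16 rose and 11 fell in VE over epiblast (median log2 change 0.49, against 0.00 for all genes), where 75.7% of all genes were called. Igf2, a growth factor gene, rose by 4.55 (edgeR adjusted p = 1.27e-07), H19, the non-coding RNA beside it, rose by 4.41 (edgeR adjusted p = 4.44e-12), and Airn, the antisense RNA of Igf2r, rose by 3.95 (edgeR adjusted p = 1.04e-10). Nnat fell by 4.41 (edgeR adjusted p = 3.54e-08), the trophoblast regulator Ascl2 fell by 3.33 (edgeR adjusted p = 1.83e-05) and Magel2 fell by 3.31 (edgeR adjusted p = 1.81e-05). Between VE cells low and high in Meg3, Rian and Mirg, 0 of 27 were called by edgeR, where 0.0707% of all genes were called, with 6 at an unadjusted p under 0.05. Igf2os, called there, is not on this list. In early PrE 2 of 27 were called, where 0.173% of all genes were. These were Peg10 (1.34; edgeR adjusted p = 1.15e-06) and Slc38a4 (1.47; edgeR adjusted p = 0.025), both higher in low cells. In TE 9 rose and 3 fell in low cells, where 12.9% were called, and in epiblast 0 were called. Low and high cells of early PrE and TE also differed in their summed TE markers, as given above. H19 was at 1576, 1241 and 1268 CPM in low and 1618, 1927 and 2854 CPM in high VE cells, lower in the low cells of all 3 libraries.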
